A study of Homo sapiens with 18 samples.

Results

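The genes described here are 6 neighbours on chromosome 20, NOP56, IDH3B, PCED1A, VPS16, PTPRA and GNRH2, out of 60622 genes in the count tables. They were picked by symbol because 5 of them had higher RNA in induced than in non-induced cells given DMSO, while IDH3B, lying among them, did not. Values of that one comparison are therefore a description of the choice, without a test. RNA was sequenced from H1299, a cell line from a human non-small cell lung cancer that is known for lacking p53 protein. It carried a doxycycline-inducible, wild-type p53 joined to FKBP12F36V and an HA tag. AceTAG compounds have 2 binding ends, 1 for the FKBP12F36V tag and 1 for an acetyltransferase, so as to place the enzyme beside the tagged protein. Induced cells were given AceTAG p300/CBP-1, AceTAG PCAF/GCN5-4 or DMSO, the vehicle. Non-induced cells were given the same 3 treatments, all for 24 h, with 3 libraries in each of the 6 groups. The labels give no dose. Doxycycline in the non-induced groups is not stated either way, and only the titles of induced samples name p53-FKBP12F36V. The line is not stated to be 1 clone or a pool, and nothing says that replicates were separate cultures, so p-values measure the spread between these samples, which may be technical.

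p53 is a transcription factor that binds DNA as a tetramer, at sites made of a pair of short motifs, and switches on genes for cell cycle arrest, DNA repair and death. The acetyltransferases p300 and CBP, and PCAF and GCN5, add acetyl groups to histones and to p53 itself. The 6 neighbours have unrelated known roles. NOP56 is a core protein of the box C/D particles that guide methylation of ribosomal RNA, and its gene carries small nucleolar RNAs in its introns. IDH3B is a subunit of the mitochondrial isocitrate dehydrogenase of the citric acid cycle. VPS16 belongs to the HOPS and CORVET complexes, which tether membranes on the way to lysosomes. PTPRA is a receptor-type tyrosine phosphatase that can activate SRC kinases, and GNRH2 encodes a form of gonadotropin-releasing hormone.

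On the coordinates of the files, which fall on GRCh38, the 6 genes span 393 kb of chromosome 20, in positions 2652593 to 3045747. NOP56 (ENSG00000101361) lies at 2652593 to 2658393 on the forward strand. IDH3B (ENSG00000101365) lies at 2658395 to 2664219 on the reverse strand, so that 1 base separates their ends, tail to tail. A stretch of 171094 bases follows before PCED1A (ENSG00000132635), at 2835314 to 2841190 on the reverse strand. VPS16 (ENSG00000215305), at 2840703 to 2866732 on the forward strand, starts inside PCED1A. Those 2 genes run apart from overlapping starts, with 488 bases in common and 0 shared exon bases. PTPRA (ENSG00000132670), at 2864184 to 3039076 on the forward strand, overlaps the end of VPS16 by 2549 bases. The overlap includes 558 exon bases, 16.6% of the VPS16 exon bases and 12.5% of those of PTPRA, and both genes lie on the same strand there. GNRH2 (ENSG00000125787), at 3043622 to 3045747 on the forward strand, begins 4545 bases after PTPRA. Libraries were made with a directional kit, but the use of strand in counting and the way reads over shared exons were assigned are not given in the sources used here. The part of shared reads in the VPS16 and PTPRA values was not tested.

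**Figure D1:**
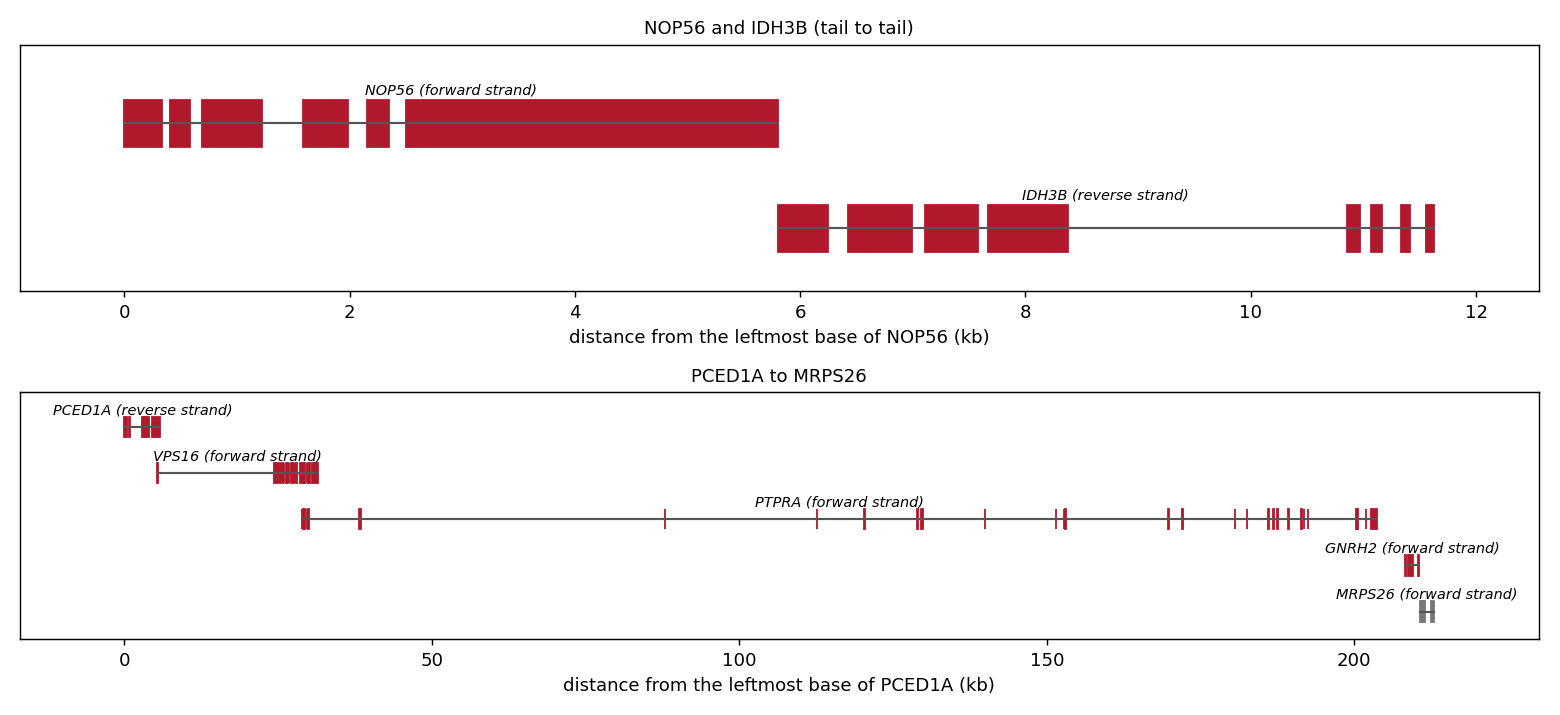
Exons (boxes) and spans (lines) of the genes, as the files list them, against distance in kb from the leftmost base of NOP56 (upper panel) or PCED1A (lower panel). NOP56 and IDH3B meet at their ends with 1 base between them, PCED1A and VPS16 overlap at their starts by 488 bases, and VPS16 and PTPRA overlap by 2549 bases.

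RefSeq promoter windows (GRCh38.p14), each reaching from 250 bases before to 50 after a start, were found for all 6 genes, 8 windows in all. They were searched on both strands for the p53 consensus decamer, a 10-base motif, for a pair of such decamers 0 to 13 bases apart, and for the E box CACGTG, a site bound by MYC and related factors. The single decamer was in none of the 8 windows, and in 6.63% of all 35116 RefSeq windows. The decamer pair was in none of them either, and in 0.0285% of all windows. Of the 17 genes with a window among 20 well known p53 targets, 6 held a decamer and 1 held a pair. The E box was in 1 PCED1A window and in the VPS16 window, and in 7.26% of all windows. Both windows cover the same DNA, so this is 1 site. The 30 bases around it, at chr20:2840667-2840696 on the forward strand, are shown because the windows of both genes hold them. Capitals mark the E box, which ends 18 bases before the first base of VPS16.

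VPS16 and PCED1A: cggcggcctcgcCACGTGacccggacgggc

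The next sequences are the bases upstream of the strongest riser, PCED1A, at chr20:2841191-2841401 on the reverse strand, and of GNRH2, the last riser in the row, at chr20:3043372-3043621 on the forward strand. The upstream bases of IDH3B, the neighbour that did not rise, at chr20:2664220-2664351 on the reverse strand, stand beside them. They are trimmed to bases outside every annotated exon and hold neither motif, so they have no capitals. Absence of these letters from a window says only that the letters are not there.

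PCED1A: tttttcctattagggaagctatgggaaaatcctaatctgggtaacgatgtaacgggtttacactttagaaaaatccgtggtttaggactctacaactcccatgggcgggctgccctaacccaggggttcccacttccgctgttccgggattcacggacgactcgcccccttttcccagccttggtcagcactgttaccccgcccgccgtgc

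GNRH2: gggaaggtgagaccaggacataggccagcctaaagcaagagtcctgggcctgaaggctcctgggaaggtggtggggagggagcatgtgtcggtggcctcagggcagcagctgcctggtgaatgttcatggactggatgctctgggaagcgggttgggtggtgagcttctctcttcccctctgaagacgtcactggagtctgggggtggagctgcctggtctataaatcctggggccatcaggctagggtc

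IDH3B: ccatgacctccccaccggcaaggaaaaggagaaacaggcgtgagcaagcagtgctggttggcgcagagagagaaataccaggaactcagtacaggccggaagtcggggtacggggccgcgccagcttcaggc

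Depth ran from 9.06 M to 29.2 M total counts in a library (1 M is 1000000 counts), and the shallowest library was replicate 3 of non-induced cells in DMSO. Levels below are in CPM, the count of a gene in every 1000000 counts of its library, with TMM factors over all 18 libraries. The p53 target MDM2 ran from 566.1 to 808.9 CPM in induced libraries and from 68.9 to 76.6 CPM in non-induced ones, so the labels and this level go the same way. The summed level of 4 markers of the line (VIM, KRT8, KRT18 and AXL) was 3004 to 3477 CPM in induced libraries and 3930 to 4826 CPM in non-induced ones. All 15 markers of immune, endothelial and fibroblast cells averaged below 1 CPM. The part of the marker shift in the results was not tested, and in bulk RNA fewer cells with a transcript and less RNA per cell cannot be told apart. Replicate 3 of induced cells in DMSO stands apart: without it, induction in DMSO gave 5001 called genes rather than 2075, and p300/CBP-1 over DMSO in induced cells gave 3234 rather than 898.

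NOP56 RNA was high in every induced library, whatever the treatment. It had 941.4, 996.7 and 964.7 CPM with p300/CBP-1, 951.2, 916.9 and 869.9 CPM with PCAF/GCN5-4, and 938.7, 907.1 and 900.3 CPM with DMSO. Non-induced libraries had 219.6, 196.1 and 200.9 CPM with p300/CBP-1, 223.5, 256.6 and 239.9 CPM with PCAF/GCN5-4, and 249.3, 253.1 and 230.6 CPM with DMSO. The lowest induced library thus lies far above the highest non-induced one, at 256.6 CPM. Over all 18 libraries, which include the DMSO ones that chose the genes, 4.36% of 16019 genes were higher in every induced library than in any non-induced one. Over the 12 libraries with a compound, 9.47% were.

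IDH3B, which ends 1 base away, had nearly level RNA. It had 131.4, 129.3 and 121.4 CPM in induced cells with p300/CBP-1, 130.2, 122 and 128 CPM with PCAF/GCN5-4, and 136.5, 129.9 and 148.7 CPM with DMSO. Non-induced cells had 136.9, 129.9 and 130 CPM with p300/CBP-1, 143.3, 142.5 and 149 CPM with PCAF/GCN5-4, and 148.1, 146.1 and 151.2 CPM with DMSO. The induced and non-induced libraries overlap. The ratio of NOP56 to IDH3B counts per kb of exon was 3.94 ± 0.21 in induced and 0.805 ± 0.025 in non-induced cells with p300/CBP-1 (SD, n = 3 each).

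PCED1A, a protein of the PC-esterase domain family, had the largest fold change of the 6 genes on induction under each treatment. With p300/CBP-1 it had 412.3, 429 and 453.1 CPM in induced cells, against 27.7, 24.2 and 23.6 CPM in non-induced cells. With PCAF/GCN5-4 it had 342.2, 328.9 and 416 CPM in induced cells, against 26.6, 24.1 and 23 CPM in non-induced cells. With DMSO it had 306.1, 288.1 and 324.8 CPM in induced cells, against 20.6, 22 and 24.3 CPM in non-induced cells. In induced cells all 3 p300/CBP-1 libraries were above all 3 DMSO libraries, which are also part of the comparison that chose the genes. No share of all genes ordered this way is given, so nothing is read from that order, and the test of the difference stands below.

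VPS16, whose start overlaps that of PCED1A, was also higher in each induced library. It had 220.8, 225.1 and 233.5 CPM in induced cells with p300/CBP-1, 201.3, 199.5 and 203.2 CPM with PCAF/GCN5-4, and 196.5, 188.8 and 256.4 CPM with DMSO. Non-induced libraries ran from 47.2 to 53.4 CPM, with a median of 49.5. The value of 256.4 CPM is from the DMSO library that stands apart, and is the highest of all 18.

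PTPRA changed less, and its induced and non-induced libraries still did not overlap. It had 318.4, 323.6 and 358.8 CPM in induced cells with p300/CBP-1, 309.6, 322.2 and 301.3 CPM with PCAF/GCN5-4, and 301.3, 294.3 and 225.9 CPM with DMSO. Non-induced libraries ran from 160.7 to 193.6 CPM, with a median of 173.1. Its lowest induced value, 225.9 CPM, is from the same DMSO library in which VPS16 was highest.

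GNRH2 was near the lower limit of detection. Raw counts were 47, 56 and 58 in induced cells with p300/CBP-1, 62, 39 and 41 with PCAF/GCN5-4, and 63, 53 and 48 with DMSO. Non-induced cells had 13, 5 and 7 counts with p300/CBP-1, 11, 13 and 11 with PCAF/GCN5-4, and 5, 16 and 5 with DMSO. On the scaled level, induced libraries ran from 1.77 to 2.54 CPM and non-induced ones from 0.192 to 0.634 CPM, without overlap. Such few counts carry wide counting error.

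Levels between genes were compared per length of exon, over all annotated exon bases. Those are 4950 of a span of 5801 bases for NOP56 and 2320 of 5877 for PCED1A, so the order holds for this annotation only. In induced cells with p300/CBP-1, NOP56 had 195 ± 5.61 and PCED1A 186 ± 8.83 CPM per kb, which do not differ beyond their spread (SD, n = 3 each). PTPRA followed at 74.7 ± 4.91, VPS16 at 67.3 ± 1.92, IDH3B at 49.6 ± 2.04 and GNRH2 at 2.93 ± 0.14 CPM per kb. In non-induced cells with p300/CBP-1 the order was IDH3B at 51.5 ± 1.58, PTPRA at 42.9 ± 0.40, NOP56 at 41.5 ± 2.51, VPS16 at 15.5 ± 0.65, PCED1A at 10.8 ± 0.94 and GNRH2 at 0.441 ± 0.161 CPM per kb. There PTPRA and NOP56 do not differ beyond their spread. With PCAF/GCN5-4, PCED1A had 156 ± 20.2 and NOP56 184 ± 8.25 CPM per kb in induced cells, and these spreads just meet. With DMSO, PCED1A had 132 ± 7.91 and NOP56 185 ± 4.15 CPM per kb in induced cells, which differ beyond their spread.

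**Figure D2:**
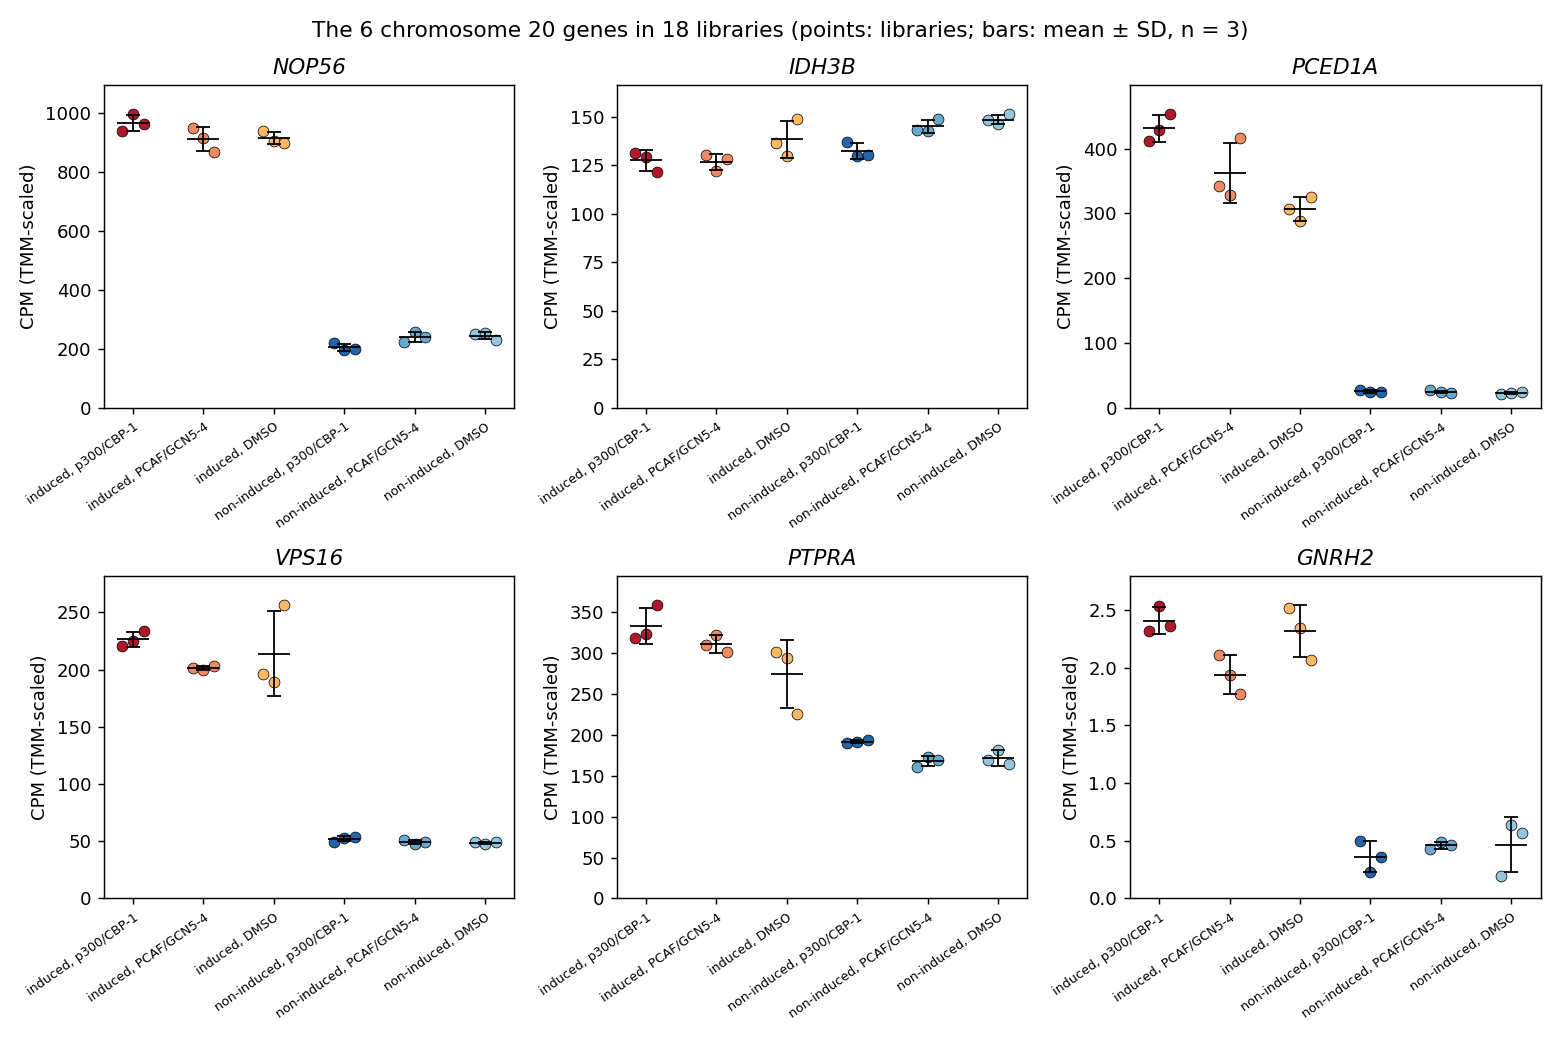
CPM (TMM-scaled) of each gene in the 18 libraries, by group, with induced groups left of non-induced ones; points are libraries, and bars are mean and SD of 3. NOP56, PCED1A, VPS16, PTPRA and GNRH2 are higher in all 9 induced libraries than in any non-induced one, where 4.36% of 16019 genes were. These libraries include the DMSO ones that chose the genes, and over the 12 libraries with a compound 9.47% were. The IDH3B libraries of both states overlap, within 121.4 to 151.2 CPM.

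Induction under DMSO is the comparison the genes were chosen on. There, 5 of the 6 genes were higher and none lower, where 6.01% of the 15055 genes tested were called higher, and nothing is read from that count. The log2 fold changes, induced over non-induced, were 3.79 ± 0.08 for PCED1A, 2.38 ± 0.38 for GNRH2, 2.14 ± 0.12 for VPS16, 1.90 ± 0.07 for NOP56, 0.67 ± 0.11 for PTPRA and -0.11 ± 0.07 for IDH3B (SE, n = 3 each).

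The comparison that chose the genes held none of the 12 libraries treated with a compound. Earlier results of these data were known when the genes were chosen, so independence of the choice from these libraries is not shown. These libraries ask whether the same genes are higher on induction under another treatment. With p300/CBP-1 in both groups, NOP56, PCED1A, VPS16, PTPRA and GNRH2 rose and IDH3B did not pass the test. That is 5 of 6 called higher, against 16.4% of the 14844 genes tested. The members' median log2 fold change was 2.18, and the median of all genes was 0.0051. PCED1A rose 17.1-fold, a log2 fold change of 4.09 ± 0.06 (SE, n = 3 each, adjusted p = 2.7e-18 by edgeR's quasi-likelihood test with Benjamini-Hochberg adjustment). NOP56 rose by 2.23 ± 0.05 (adjusted p = 5.59e-16 by edgeR) and VPS16 by 2.12 ± 0.05 (adjusted p = 1.27e-15 by edgeR). GNRH2 rose by 2.68 ± 0.31 (adjusted p = 2.24e-06 by edgeR) and PTPRA by 0.80 ± 0.05 (adjusted p = 1.02e-09 by edgeR). In this comparison GNRH2 passed the filter on low counts only through its induced libraries, so its call and its place in the count are no support. For IDH3B the value was -0.06 ± 0.05, with a 95% interval of -0.16 to 0.05 (adjusted p = 0.439 by edgeR). In rank from the top, NOP56 was at 111 of 14844 genes.

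With PCAF/GCN5-4 in both groups the same 5 genes rose, against 11.4% of the 15236 genes tested, and IDH3B fell. The members' median was 1.97 and that of all genes was 0.0020. PCED1A rose 14.7-fold, by 3.87 ± 0.10 on the log2 scale (SE, n = 3 each, adjusted p = 1.11e-12 by edgeR). The next were GNRH2 at 2.06 ± 0.30 (adjusted p = 0.000134), VPS16 at 2.02 ± 0.07 (adjusted p = 1.43e-11) and NOP56 at 1.92 ± 0.08 (adjusted p = 1.43e-10), all by edgeR. PTPRA rose by 0.88 ± 0.06 (adjusted p = 1.32e-07 by edgeR). IDH3B fell by 0.20 ± 0.06 (adjusted p = 0.0329 by edgeR), where 12.5% of genes were called lower. That call is lost when any of 5 of the 6 libraries is left out (adjusted p = 0.053 to 0.138 by edgeR), and only the one without replicate 1 of non-induced cells keeps it.

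The size of the induction effect did not pass a test of difference between the compounds for any of the 6 genes, where 0.326% of 15656 genes did. The smallest unadjusted p was that of NOP56, 0.31 ± 0.09 higher with p300/CBP-1 than with PCAF/GCN5-4 (95% interval 0.13 to 0.49, adjusted p = 0.215 by edgeR's test of the interaction). PCED1A differed by 0.22 (interval -0.04 to 0.47), VPS16 by 0.10 (-0.06 to 0.26), PTPRA by -0.09 (-0.26 to 0.07), IDH3B by 0.14 (-0.02 to 0.30) and GNRH2 by 0.61 ± 0.43. By unadjusted p under 0.05, 1 of the 6 was called, a count with no share over all genes beside it. DESeq2 called 0 of the 6, where it called 109 of 15656 genes. Set against DMSO, where the DMSO side chose the genes, no gene of the 6 was called either, where 1.28% of 15618 genes were with p300/CBP-1 and 0.0696% of 15813 with PCAF/GCN5-4. NOP56 differed by 0.34 ± 0.08 with p300/CBP-1 (adjusted p = 0.0666 by edgeR) and by 0.01 ± 0.10 with PCAF/GCN5-4 (adjusted p = 0.981 by edgeR). By unadjusted p under 0.05, 2 were called with p300/CBP-1 and 0 with PCAF/GCN5-4, again with no share over all genes. DESeq2 called 1 and 0, where it called 287 of 15618 and 49 of 15813 genes.

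Treating induced cells with p300/CBP-1 raised 1 of the 6 genes over DMSO, where 2.94% of 15019 genes were called higher. These DMSO libraries are also part of the comparison that chose the genes. PCED1A had 431.5 ± 20.5 CPM with p300/CBP-1 and 306.3 ± 18.3 CPM with DMSO (SD, n = 3 each), a log2 fold change of 0.50 ± 0.07 (adjusted p = 0.00372 by edgeR). PTPRA was at 0.29 ± 0.11 (adjusted p = 0.156 by edgeR), and without replicate 3 of induced cells in DMSO at 0.17 (adjusted p = 0.00154 by edgeR). NOP56 was at 0.09 (95% interval -0.05 to 0.23), VPS16 at 0.09 (-0.15 to 0.33), GNRH2 at 0.06 (-0.35 to 0.48) and IDH3B at -0.11 (-0.27 to 0.04). Without the same library VPS16 was at 0.24 (adjusted p = 2.92e-06 by edgeR).

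The p53 targets CDKN1A, an inhibitor of cell cycle kinases, and MDM2, the ligase that degrades p53, give a scale for these values. CDKN1A had 2372 ± 63.7 CPM in induced cells with p300/CBP-1 and 353.1 ± 24.0 CPM with DMSO, a log2 fold change of 2.75. A list of 20 known p53 targets was chosen with earlier results of these data known, so its counts are a description only. With p300/CBP-1 over DMSO in induced cells 16 were called higher, with a median of 0.94, against 2.94% of 15019 genes. On induction all 20 were called higher with DMSO, p300/CBP-1 and the other compound, against 6.01%, 16.4% and 11.4% of all genes tested. Only 19 of the 20 passed the filter on low counts for either compound over DMSO in non-induced cells. The call of the remaining gene on induction may thus rest on its induced libraries. MDM2 rose by 0.29 ± 0.07 with p300/CBP-1 over DMSO in induced cells (adjusted p = 0.0363 by edgeR).

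PCAF/GCN5-4 over DMSO in induced cells called none of the 6 genes by edgeR, where 0.345% of 15078 genes were called. By unadjusted p under 0.05, 1 was called, a count with no share over all genes beside it. DESeq2 called 0, where it called 128 of 15078 genes. PCED1A was at 0.23 ± 0.10 (95% interval 0.01 to 0.46), and NOP56 at -0.01 (-0.19 to 0.17).

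Set against each other in induced cells, p300/CBP-1 and PCAF/GCN5-4 share no library with the comparison that chose the genes. None of the 6 genes was called by edgeR, where 4.12% of 14983 genes were. By unadjusted p under 0.05, 2 were, a count with no share over all genes beside it. DESeq2 called 2, PCED1A and VPS16, where it called 689 of 14983 genes. PCED1A was 0.26 ± 0.07 higher with p300/CBP-1 (95% interval 0.10 to 0.42, adjusted p = 0.0697 by edgeR). VPS16 was 0.18 ± 0.05 higher (95% interval 0.07 to 0.28, adjusted p = 0.0573 by edgeR). Without replicate 3 of induced cells with PCAF/GCN5-4, PCED1A was at 0.37 and was called (adjusted p = 0.00256 by edgeR). VPS16 was called without replicate 2 of that group, at 0.17 (adjusted p = 0.021 by edgeR). The doses are not given, so equal doses cannot be taken for granted.

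In non-induced cells p300/CBP-1 lowered 2 of the 6 genes and raised 1, where 6.46% and 3.43% of 14943 genes were called lower and higher. These DMSO libraries, too, belong to the comparison on which the genes were chosen. NOP56 had 205.5 ± 12.4 CPM with p300/CBP-1 and 244.3 ± 12 CPM with DMSO (SD, n = 3 each), a log2 fold change of -0.25 ± 0.05 (adjusted p = 0.0069 by edgeR). IDH3B was at -0.16 ± 0.05 (adjusted p = 0.0434 by edgeR) and PTPRA at 0.16 ± 0.05 (adjusted p = 0.0483 by edgeR). These small changes hold less firmly: leaving out 1 library at a time leaves 0 to 3 calls. Of the 6 genes 0 remain without replicate 2 of p300/CBP-1, or without replicate 1 or 2 of DMSO. Over all genes those fits called 703 of 15461, 581 of 15069 and 527 of 15039. With PCAF/GCN5-4 over DMSO none of the 6 was called by edgeR, where 0.0199% of 15100 genes were. By unadjusted p under 0.05, 0 were called, and DESeq2 called 0, where it called 2 of 15100 genes. Between the compounds in non-induced cells edgeR again called none, where 1.09% of 15131 genes were called. By unadjusted p under 0.05, 2 were called, NOP56 at -0.22 ± 0.07 and PTPRA at 0.20 ± 0.06, with no share over all genes beside that count. DESeq2 called 0, where it called 439 of 15131 genes. Without replicate 1 of non-induced cells with PCAF/GCN5-4, NOP56 was at -0.27 and was called (adjusted p = 0.0473 by edgeR).

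**Figure D3:**
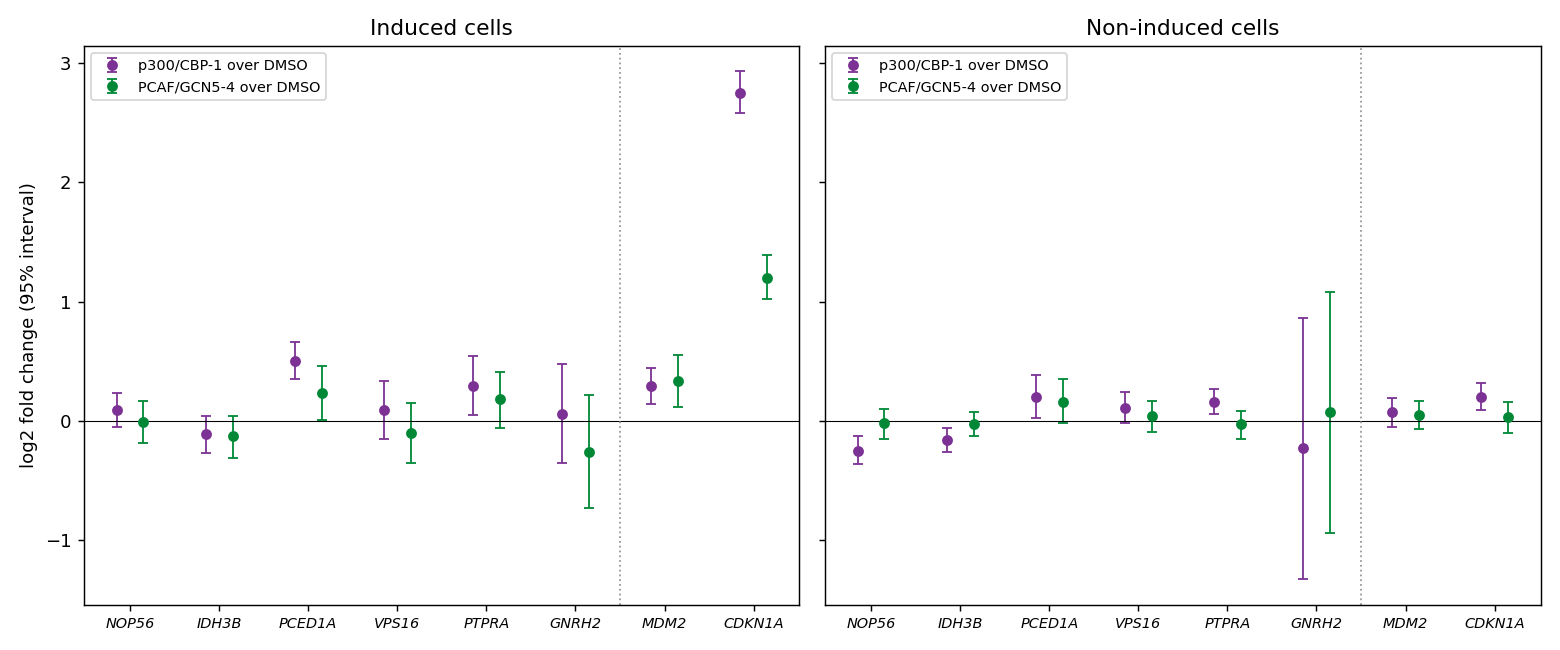
Log2 fold change of each compound over DMSO with its 95% interval, in induced (left) and non-induced cells (right); the genes right of the dotted line are MDM2 and CDKN1A. Among the 6 neighbours in induced cells PCED1A with p300/CBP-1, at 0.50, was the only one called, and CDKN1A was at 2.75.

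The reach of the rise along the chromosome was read from the 44 other genes that lie within 500 kb of the outermost members, 19 of which had no count in any library. Between or overlapping the members lie 13 genes. MIR1292, SNORD110, SNORD86, SNORD56 and SNORD57, small RNAs inside NOP56, had no counts, as did RPL19P1, AL035460.1 and TMEM239. Whether these libraries recover RNAs as short as those inside NOP56 was not tested, so lack of counts does not show that they were absent. AL049712.1, CPXM1 and C20orf141 reached at most 3, 7 and 1 counts. SNORA51, a further small RNA inside NOP56, had 15, 5 and 6 counts in induced cells with p300/CBP-1, against 1, 1 and 0 in non-induced ones. These small RNAs inside NOP56 share 472 exon bases with it, 9.54% of the exon bases of NOP56, so that their reads and those of NOP56 cannot be told apart here. EBF4, a transcription factor of the early B-cell factor family, lies between IDH3B and PCED1A and was the only one of these 13 genes tested. It had 16, 15 and 21 counts in induced cells with p300/CBP-1, against 7, 2 and 2 in non-induced ones. It passed the filter on low counts only through those induced libraries, so no test is read from it. With PCAF/GCN5-4 it was too low to be tested.

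Outside the members, 12 of 31 genes were tested. With p300/CBP-1, 6 rose and 2 fell on induction. With PCAF/GCN5-4, 3 rose and 1 fell. Among the other genes of chromosome 20, 75 of 391 tested (19.2%) rose with p300/CBP-1 and 45 of 399 (11.3%) rose with PCAF/GCN5-4, with a median log2 fold change of 0.02 in both. MRPS26, a mitochondrial ribosomal protein gene that starts 304 bases after GNRH2, had 40.9 ± 2.18 CPM in induced and 36.4 ± 3.86 CPM in non-induced cells with p300/CBP-1 (SD, n = 3 each). Its log2 fold change was 0.16 ± 0.08 (adjusted p = 0.12 by edgeR), and with PCAF/GCN5-4 it was -0.12 ± 0.11 (adjusted p = 0.514 by edgeR). On the other side of the row, TMC2, the next gene before NOP56, had no counts.

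The largest rise outside the members was that of SLC4A11, a membrane transporter gene at 3227417 to 3239559 on the reverse strand. It had 12.9, 13.6 and 13.8 CPM in induced cells with p300/CBP-1, against 4.29, 3.59 and 3.36 CPM in non-induced cells. It rose by 1.83 ± 0.13 with p300/CBP-1 (adjusted p = 2.92e-09 by edgeR) and by 1.68 ± 0.17 with PCAF/GCN5-4 (adjusted p = 2.71e-06 by edgeR). The other called neighbours moved less. LZTS3 rose by 0.60 ± 0.11 with p300/CBP-1, where the member PTPRA rose by 0.80, and was at 0.33 ± 0.17 with PCAF/GCN5-4, not called. With p300/CBP-1, C20orf194 was at 0.31, ZNF343 at 0.24, ATRN at 0.23 and ITPA, an enzyme that clears inosine triphosphate, at 0.22. SNRPB, a core spliceosome protein, was at -0.23 and DDRGK1 at -0.30. Of these, C20orf194 at 0.39, ATRN at 0.29 and SNRPB at -0.38 were also called with PCAF/GCN5-4. The parts of position, of overlap and of p53 binding in the rise of the 5 genes were not tested.

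**Figure D4:**
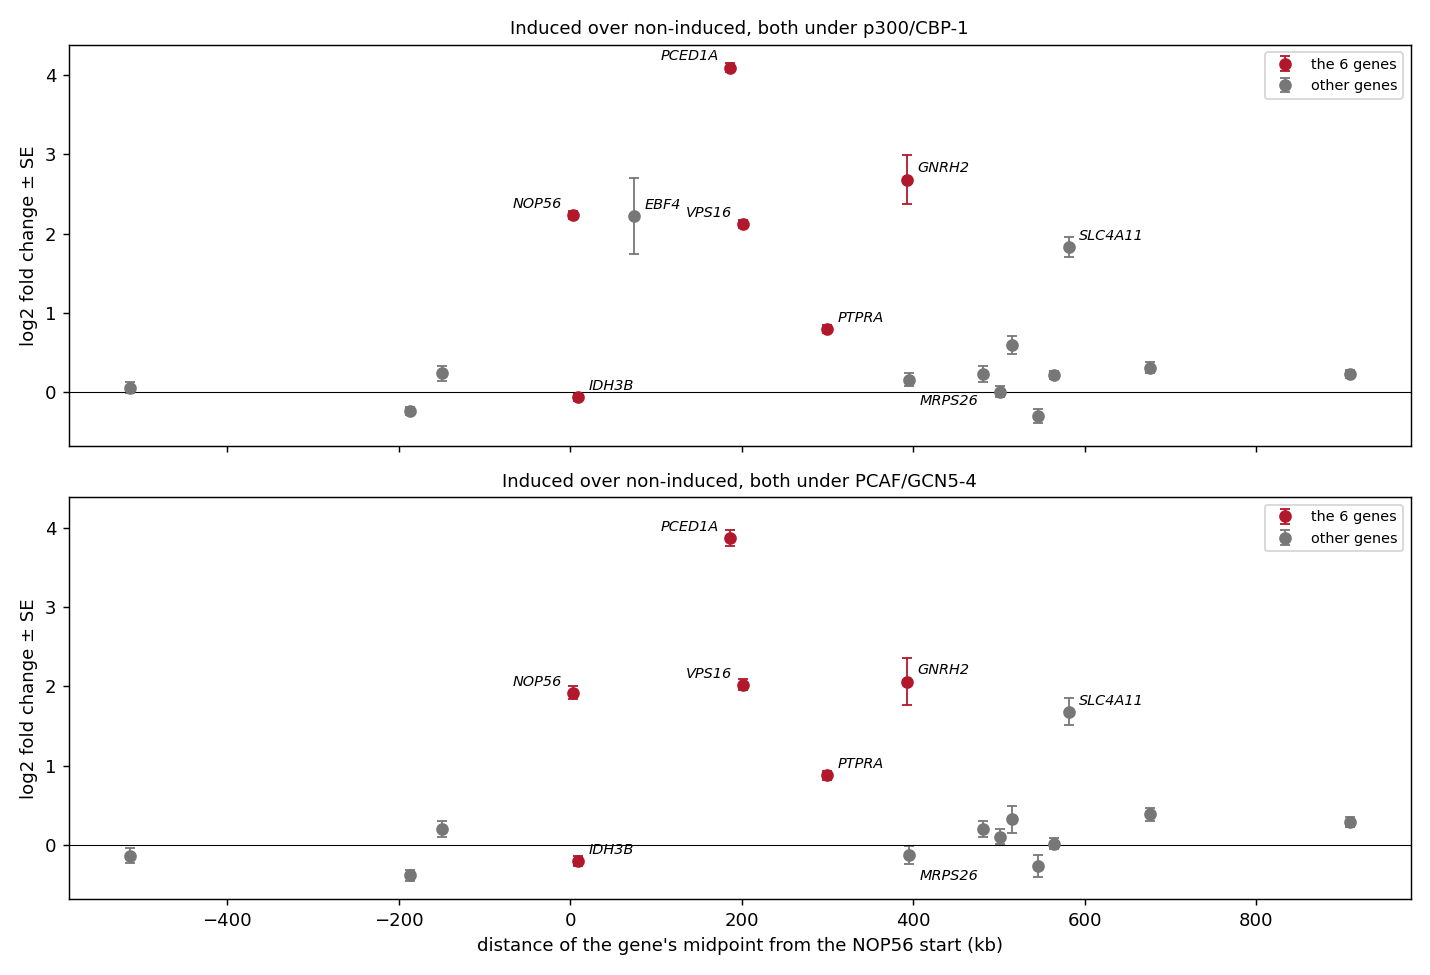
Log2 fold change with SE, induced over non-induced, against distance of each gene's midpoint from the NOP56 start in kb, under p300/CBP-1 (upper) and PCAF/GCN5-4 (lower); red points are the 6 genes and grey points the other tested genes. With p300/CBP-1, PCED1A was at 4.09, VPS16 at 2.12, IDH3B at -0.06 and MRPS26 at 0.16. EBF4, drawn in the upper panel, passed the filter on low counts only through its induced libraries.

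Partners of the members are given from lists, beside the shares over all genes tested: 16.4% were called higher and 16.2% lower with p300/CBP-1, and 11.4% higher and 12.5% lower with PCAF/GCN5-4. NOP56 works with NOP58, FBL and SNU13 and with assembly factors. None of the 10 such genes in the files rose on induction, 1 fell with p300/CBP-1 and 4 fell with PCAF/GCN5-4, with medians of -0.08 and -0.18. NOP58 was at -0.16 ± 0.05 with p300/CBP-1 (adjusted p = 0.0132 by edgeR), and FBL, the methyltransferase, at -0.41 ± 0.10 with PCAF/GCN5-4 (adjusted p = 0.00947 by edgeR). Of 16 citric acid cycle genes, the setting of IDH3B, 3 rose and 1 fell with p300/CBP-1, and 1 rose with PCAF/GCN5-4, all within -0.19 to 0.32. IDH3G, another subunit of the same enzyme, rose by 0.24 ± 0.06 with p300/CBP-1 (adjusted p = 0.00774 by edgeR).

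Of 7 other HOPS and CORVET subunits, 5 rose with p300/CBP-1 and 3 with PCAF/GCN5-4, and none fell. The sizes were small beside those of VPS16: VPS41 rose by 0.22 ± 0.06 with p300/CBP-1 (adjusted p = 0.00757 by edgeR) and by 0.37 ± 0.07 with PCAF/GCN5-4 (adjusted p = 0.00115 by edgeR), the highest value on the list. Of the receptor-type phosphatases and SRC kinases around PTPRA, 4 rose and 3 fell of 15 tested with p300/CBP-1, and 4 rose and 1 fell of 16 tested with PCAF/GCN5-4. SRC rose by 0.46 ± 0.07 with p300/CBP-1 (adjusted p = 4.18e-05 by edgeR) and PTPRU by 1.71 ± 0.22 (adjusted p = 9.36e-06 by edgeR), while PTPRF was at -0.35 ± 0.07 (adjusted p = 0.000521 by edgeR). Among close relatives and partners of the remaining members (PCED1B, GNRH1, GNRHR, VIPAS39 and VPS33B), 1 rose of 3 tested with p300/CBP-1 and 1 of 4 with PCAF/GCN5-4.

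The genes with the most similar pattern were sought among 16018 genes, by the root mean square difference of centred log2(CPM + 0.5) over the 18 libraries. These include the 6 DMSO libraries on which the genes were chosen, so likeness among the 5 higher genes is partly set by that choice. So is their likeness to other genes that rise on induction, known p53 targets among them. Both are a description, and nothing about p53 binding is read from them. NOP56 and VPS16 were each other's nearest gene, at 0.17. The next for NOP56 were DDB2, a DNA damage sensor and known p53 target, at 0.17, GALNT16 at 0.21 and AL137796.1 at 0.23. Others near VPS16 were PLK3 at 0.20 and LINC01629 at 0.22. For PCED1A they were C1orf220 at 0.26, FDXR, a mitochondrial reductase and known p53 target, at 0.27, and CYFIP2 at 0.30. PTPRA was nearest to PPM1D, a phosphatase known as a p53 target, at 0.08, and then to KAT2B, which encodes PCAF, at 0.11 and SLC17A5 at 0.11. GNRH2 was nearest to GLUL at 0.19, with DRAM1 at 0.23, and IDH3B to PSMC3, MYH10 and ZC3H7B, each at 0.04. For GNRH2, the added 0.5 CPM is above its mean in each non-induced group (0.363 to 0.464 CPM). That shrinks its change more than the change of genes at higher levels, so its nearest genes depend on the added value. On this measure PCED1A and VPS16 were 0.92 apart, with VPS16 ranked 24 for PCED1A and PCED1A ranked 1795 for VPS16. The ratio of PCED1A to VPS16 counts per kb of exon was 2.76 ± 0.05 in induced and 0.704 ± 0.092 in non-induced cells with p300/CBP-1 (SD, n = 3 each). With PCAF/GCN5-4 it was 2.61 ± 0.32 in induced and 0.721 ± 0.045 in non-induced cells.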

How the data were processed

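RNA of 18 libraries was counted per gene. Per the file headers, the authors deposited raw counts in 4 tables, and these counts were used here, with exon positions and length in bases (another unit) from the same tables. StringTie and DESeq2 are named per the submitters' processing notes, without versions, and the aligner, build, annotation and use of strand are not given in the sources used here. Counts of non-induced DMSO libraries came from 1 of the 2 tables that hold them. ANK2, whose line is broken in the other table, was left out, and 27 further columns of per-sample values were not used. Gene ends equal those of GENCODE release 29 for 6 of the 6 genes and starts for 5.

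The groups of a comparison, and no others, entered its fit in edgeR 4.0.16 (R 4.3.3), which used filterByExpr, TMM factors and a 2-sided quasi-likelihood F test. A gene was called at a Benjamini-Hochberg adjusted p below 0.05, over every gene tested. Percentages of genes called follow that rule. No share over all genes is given for counts by unadjusted p, and nothing is read from those counts. SE is the log2 fold change divided by the square root of F. Intervals are 95%. All 6 genes passed the filter in each comparison. Alternatives were DESeq2 1.42.0, other size factors, no filter, all 6 groups in 1 fit, a replicate block and leaving out each library. A count of 0 allows up to 3 counts, 0.103 to 0.331 CPM, for counting error only. The members and lists were chosen with earlier results of these data known. All 6 genes are named throughout, and neighbours within 500 kb where called on induction under a compound or lying among the members. MRPS26, TMC2 and examples from the lists were named after their values were seen. Values of some genes are not reported here.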

Additional observations from a re-analysis of the deposited data

How the results depend on the processing

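The rise of NOP56, PCED1A, VPS16, PTPRA and GNRH2 on induction under each compound kept its direction and call in all 110 values under the alternatives. Those of GNRH2 with p300/CBP-1 are no support, as it passed the filter on low counts there only through its induced libraries. Over all genes, the alternatives called 1829 of 16019 to 2804 of 15145 higher with p300/CBP-1. With PCAF/GCN5-4 they called 1235 of 15553 to 1946 of 16019 higher. Over all comparisons, 24 of 895 values changed sign, none of them called in either setting. Replicate numbers did not pair the libraries: deviations of same-numbered libraries correlated at -0.0771 to 0.0961. With a replicate block IDH3B on induction with PCAF/GCN5-4 missed the threshold (adjusted p = 0.0571), and the counts it moved stand below. The cause of these changes was not tested, and fits without a filter test more genes.

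For p300/CBP-1 over DMSO in induced cells, 2 of the 6 genes rather than 1 were called with no filter or all 6 groups in 1 fit. Over all genes these fits called 2106 of 30226 and 2214 of 16019, against 898 of 15019 in the main fit. Leaving out 1 library gave 1 to 3 of the 6. The 3 were called without replicate 3 of induced cells in DMSO, where 3234 of 15266 genes were. In non-induced cells 1 of the 6 rather than 3 was called with all 6 groups or the replicate block, and 2 with no filter. Over all genes these fits called 615 of 16019, 1311 of 14943 and 1752 of 29841, against 1478 of 14943. Leaving out 1 library gave 0 to 3 of the 6, where 527 of 15039 to 2384 of 15084 genes were called. Between the compounds in induced cells 2 of the 6 were called with DESeq2, and 1 with no filter or the replicate block, rather than 0. Over all genes these fits called 689 of 14983, 892 of 30210 and 568 of 14983, against 617 of 14983. Leaving out 1 library gave 0 to 1 of the 6, where 236 of 15194 to 1098 of 15354 genes were called. Between them in non-induced cells, leaving out 1 library gave 0 to 1 of the 6. The 1 was called without replicate 1 of PCAF/GCN5-4, where 287 of 15405 genes were, against 165 of 15131 in the main fit. For the difference in induction, p300/CBP-1 against PCAF/GCN5-4, 1 of the 6 was called with no filter. That fit called 181 of 33930 genes, against 51 of 15656 in the main fit. For p300/CBP-1 against DMSO 1 of the 6 was called with DESeq2 or no filter. Over all genes these fits called 287 of 15618 and 416 of 33811, against 200 of 15618. Leaving out 1 library gave 0 to 2 of the 6, where 123 of 15873 to 432 of 15843 genes were called.

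Small values changed sign when 1 library was left out. The log2 fold change of p300/CBP-1 over DMSO ran from -0.012 to 0.128 for GNRH2 in induced cells and from -0.71 to 0.31 in non-induced cells. That of PCAF/GCN5-4 over DMSO ran from -0.04 to 0.024 for NOP56 and -0.18 to 0.058 for VPS16 in induced cells. In non-induced cells it ran from -0.077 to 0.021 for NOP56, -0.062 to 0.014 for PTPRA and -0.41 to 0.59 for GNRH2. Between the compounds it ran from -0.018 to 0.048 for IDH3B in induced cells and -0.04 to 0.102 for PCED1A in non-induced cells. The difference in induction, p300/CBP-1 against DMSO, ran from -0.092 to 0.13 for VPS16, 0.004 with the replicate block, and from -0.26 to 0.78 for GNRH2. For PCAF/GCN5-4 against DMSO it ran from -0.038 to 0.067 for NOP56, -0.037 to 0.146 for PCED1A, -0.205 to 0.026 for VPS16 and -0.86 to 0.16 for GNRH2. GNRH2, with 5 to 16 counts in non-induced libraries, is limited by depth.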
